A study of Mus musculus with 20 samples.

Results

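Genes of the ciliary axoneme and of the transport machinery that builds cilia were measured in mouse lung after house dust mite (HDM) exposure. Their symbols begin with Dnah, Dnaic, Rsph, Tekt, Ift or Bbs followed by a number, and they held at least 10 counts summed over the 20 libraries. Of 24054 genes in the table, 46 met this rule, 24 of the motile axoneme and 22 of transport. The axoneme genes were 11 dynein heavy chains, 2 dynein intermediate chains, 6 radial spoke genes and 5 tektins. The transport genes were 3 of intraflagellar transport (IFT) complex A, 11 of complex B, 6 subunits of the BBSome and 2 chaperonin-like Bardet-Biedl genes.

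RNA was sequenced from whole lung of female C57Bl6 mice that were wild type or labelled ALOX15 KO, with 5 libraries in each of 4 groups. WT_HDM and KO_HDM mice received HDM extract, an inhaled allergen that causes airway inflammation, into the nose daily for 14 days, and WT_saline and KO_saline mice received saline. The age of the mice and the knockout allele are not given in the sources used here. The labels call the libraries biological replicates without saying that each is 1 mouse. The p-values therefore judge differences against the spread between these libraries, estimated over all 4 groups together. Libraries held 12573113 to 23305673 expected counts.

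Motile cilia of the airway beat to clear mucus, and their axoneme is a ring of microtubule doublets around a central pair. Dynein arms on the doublets bend the cilium, radial spokes pass signals from the central pair to the arms, and tektins are filaments inside the doublets. IFT trains carry building blocks along the cilium, complex B mainly outward and complex A mainly back, and the BBSome is a coat that moves membrane proteins in and out of cilia. Axonemal dyneins, spokes and tektins are needed only in motile cilia and sperm flagella, whereas IFT and BBSome genes also serve the immotile primary cilium that many other lung cells carry.

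RFX transcription factors bind the X-box, an inverted repeat, in promoters of many cilia genes, so the promoters of the members were searched for it. RefSeq (mouse assembly GRCm38.p6) gave windows of 300 bases, 250 before to 50 after a start site, for 41 of the 46 members (44 windows). The full motif, GTTNCC and GGNAAC with NN between them, searched on both strands, was in 148 of 32851 windows of all genes (0.451%) and, among the members, in Bbs7. Inverted repeats with another spacer or other arms were not searched for, so other forms of the X-box may be present. The Tekt4 window below holds such a repeat, gttgctcagcaac, in lower case. Its arm GTTGCC, also searched on both strands and contained in some full motifs, was in 9 of 25 axoneme windows (36.0%) and 8 of 19 transport windows (42.1%), against 12.5% of all windows. By gene, it was in 8 of 22 axoneme genes (36.4%) and 8 of 19 transport genes (42.1%), against 14.1% of all genes. The Tekt2 windows chr4:126325597-126325896 and chr4:126325639-126325938 hold the same 2 matches, and its window chr4:126325386-126325685 has none. The forkhead motif TGTTTAC was in 2 of 25 axoneme windows, those of Dnah17 and Tekt3, and in 0 of 19 transport windows, against 3.65% of all windows. Windows are printed for the 2 tektins and the complex B gene with the lowest p among those lower in both HDM comparisons, for Bbs7 with the full motif, and for Dnah8, which rose and has no match to any of the motifs. They are Tekt2 at chr4:126325597-126325896 (minus strand, 1 of 3 windows), Tekt4 at chr17:25471340-25471639 (plus), Ift172 at chr5:31291065-31291364 (minus), Bbs7 at chr3:36613340-36613639 (minus) and Dnah8 at chr17:30626686-30626985 (plus). They are written 5′ to 3′ on the gene's strand, with GTTGCC, its reverse complement GGCAAC or the full motif in capitals.
Tekt2: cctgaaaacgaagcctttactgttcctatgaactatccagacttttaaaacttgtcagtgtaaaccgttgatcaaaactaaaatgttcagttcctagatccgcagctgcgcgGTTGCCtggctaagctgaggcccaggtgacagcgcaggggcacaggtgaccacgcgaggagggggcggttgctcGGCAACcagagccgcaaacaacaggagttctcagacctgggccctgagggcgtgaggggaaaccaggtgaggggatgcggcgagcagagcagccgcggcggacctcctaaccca
Tekt4: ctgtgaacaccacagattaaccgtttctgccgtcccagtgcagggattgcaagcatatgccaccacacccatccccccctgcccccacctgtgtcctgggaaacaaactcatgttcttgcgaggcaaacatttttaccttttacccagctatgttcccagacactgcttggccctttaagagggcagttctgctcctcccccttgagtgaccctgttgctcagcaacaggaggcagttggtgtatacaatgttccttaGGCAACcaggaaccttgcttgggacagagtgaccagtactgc
Ift172: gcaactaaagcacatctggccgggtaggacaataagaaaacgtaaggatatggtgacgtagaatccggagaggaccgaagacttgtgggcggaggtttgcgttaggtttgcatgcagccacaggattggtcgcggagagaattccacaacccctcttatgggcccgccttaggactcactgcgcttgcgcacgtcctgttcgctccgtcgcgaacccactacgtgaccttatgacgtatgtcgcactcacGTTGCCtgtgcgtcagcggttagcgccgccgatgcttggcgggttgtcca
Bbs7: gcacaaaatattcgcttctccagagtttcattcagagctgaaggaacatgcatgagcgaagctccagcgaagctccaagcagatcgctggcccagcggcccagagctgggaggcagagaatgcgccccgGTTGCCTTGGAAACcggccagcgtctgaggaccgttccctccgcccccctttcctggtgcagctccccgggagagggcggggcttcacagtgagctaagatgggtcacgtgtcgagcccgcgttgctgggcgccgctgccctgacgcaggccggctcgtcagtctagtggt
Dnah8: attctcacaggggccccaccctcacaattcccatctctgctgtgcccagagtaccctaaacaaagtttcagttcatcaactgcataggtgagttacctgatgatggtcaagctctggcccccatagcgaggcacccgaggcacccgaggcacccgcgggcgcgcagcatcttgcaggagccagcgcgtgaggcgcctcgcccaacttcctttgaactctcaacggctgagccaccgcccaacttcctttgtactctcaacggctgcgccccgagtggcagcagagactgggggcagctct
A match is a description of these letters and was not tied to any difference in expression. Windows of Bbs2, Bbs4, Bbs9, Dnaic1 and Rsph9, which fell in both HDM comparisons, have no match. Those of Dnah10, Dnah7a and Dnah7b, which were called in neither, hold GTTGCC.

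Alox15, the targeted gene, did not fall with the knockout label. It lay at 0.825 to 11.1 CPM (counts scaled to library size) in WT_saline libraries and 7.92 to 29.8 CPM with HDM, and at 38.4 to 44.7 CPM in KO_saline libraries and 35.0 to 45.5 CPM with HDM. Genotype is therefore given below as that of libraries labelled knockout. Adipose transcripts were high (Adipoq at 50 CPM or more) in WT_saline 2 and 4, WT_HDM 2 and 4 and KO_HDM 5, skeletal muscle transcripts in WT_HDM 2, and liver transcripts in KO_HDM. Markers of ciliated cells were present in every library.

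After HDM in wild-type lungs, transport genes and the tektins were the members most often lower. A gene is called when its adjusted p is under 0.05 (edgeR quasi-likelihood test, Benjamini-Hochberg over all 16193 genes tested); Rsph6a, with 20 counts in all, was the only member too low to test. Of 22 transport genes 10 fell and 0 rose, and of 23 tested axoneme genes 6 fell and 1, Dnah8, rose. Among all genes 30.1% were called, 16.5% lower and 13.6% higher, so that 45.5% of transport genes and 26.1% of axoneme genes stand beside 16.5%. Without the adipose-rich libraries the called share of each class in wild type was below that of all genes (21.4%), as given below. The median log2 fold change was -0.28 for axoneme genes and -0.23 for transport genes, against -0.02 for all genes. Groups did not overlap, with HDM lower, for 4 transport and 2 axoneme genes, beside 5.64% of all genes, and with HDM higher for Dnah8, beside 5.93%.

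In the libraries labelled knockout the same classes were lower, and more members passed the test. Of 22 transport genes 14 fell and 1, Bbs12, rose; of 23 axoneme genes 8 fell and 1, Dnah8, rose. The background was also higher there, with 51.9% of all genes called, 25.7% lower and 26.2% higher, and 63.6% of transport and 34.8% of axoneme genes stand beside 25.7%. Median log2 fold changes were -0.30 for axoneme and -0.29 for transport genes, against 0.02 for all genes. HDM libraries lay wholly below saline libraries for 11 transport and 7 axoneme genes, beside 21.8% of all genes, and wholly above them for Dnah8 and Bbs12, beside 22.1%. All 10 transport genes that fell in wild type also fell here, as did 5 of the 6 axoneme genes; Dnah11 was called only in wild type, and Dnaic2, Rsph3a, Tekt5, Ift20, Ift22, Ift46 and Ift88 only in the libraries labelled knockout. None of the members had a called interaction, so a difference between the genotype labels in these genes is not shown.

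**Figure D1:**
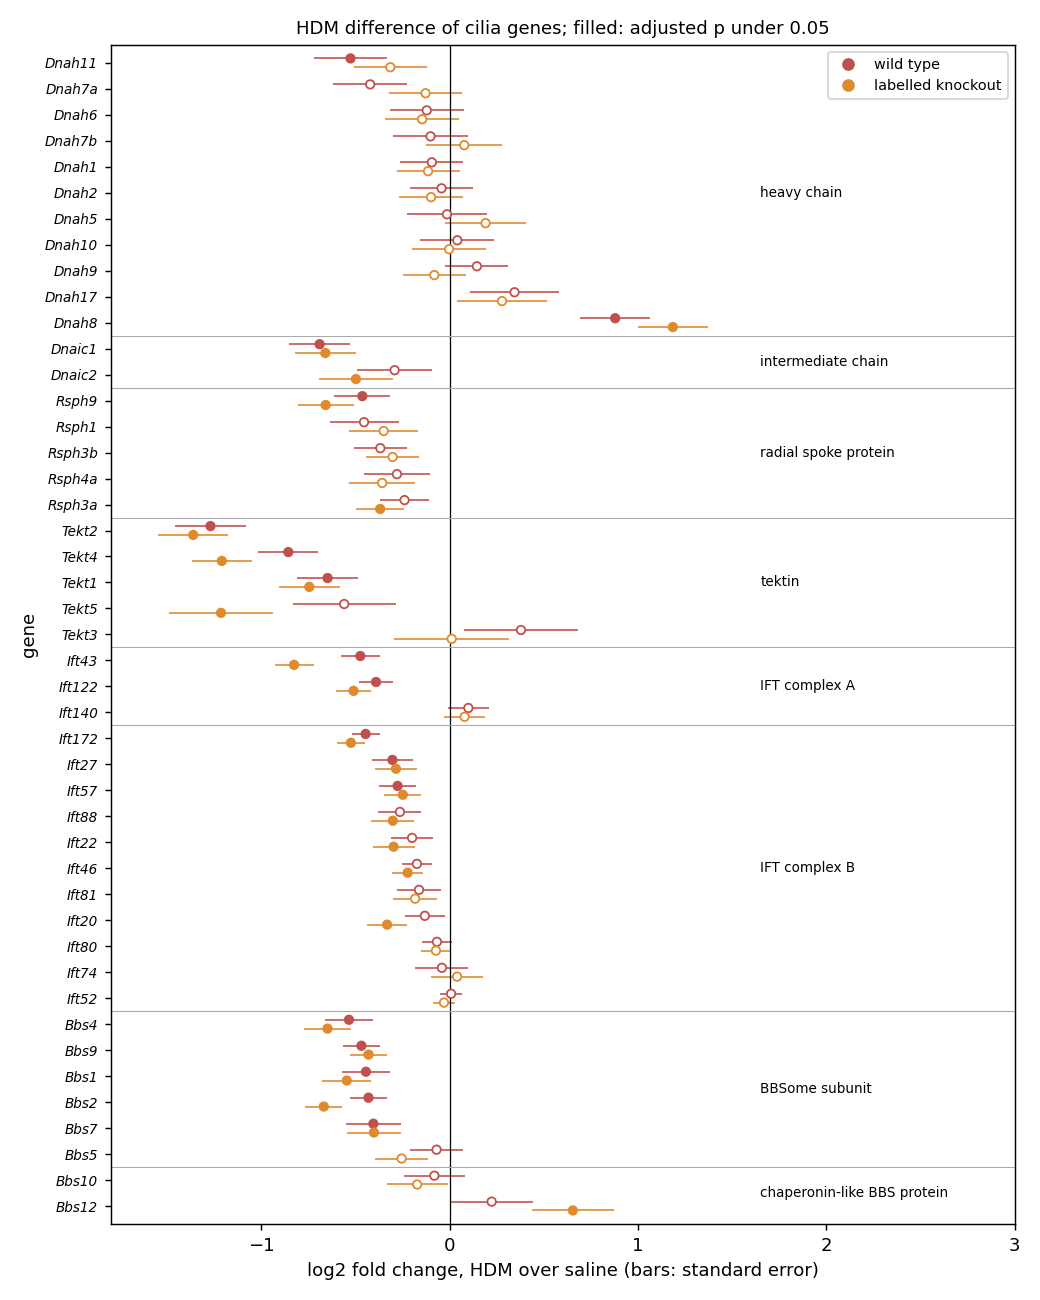
Log2 fold change of HDM over saline (x axis; bars are standard errors) for the 45 tested members (y axis), in wild type and in libraries labelled knockout, grouped by class; filled points have an adjusted p under 0.05. Tektins and BBSome subunits lie mostly left of 0 in both, heavy chains lie around 0, and Dnah8 lies to the right.

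Within the axoneme, the dynein heavy chains, which are the motors, did not follow the smaller parts. Their median was -0.04 in wild type and -0.08 in the libraries labelled knockout. Of 11 heavy chains 1 rose and 1 fell in wild type, and 1 rose and 0 fell in the libraries labelled knockout. The shares lower were 9.09% and 0%, beside 16.5% and 25.7% of all genes. The share higher was 9.09% in both, beside 13.6% and 26.2%. Of the 12 other axoneme genes tested, 5 fell in wild type and 8 in the libraries labelled knockout, with medians of -0.46 and -0.58. The shares lower, 41.7% and 66.7%, stand beside the same 16.5% and 25.7%. Heavy chains varied more between libraries of 1 group (median coefficient of variation 28.7% in WT_saline) than transport genes did (14.1%). The median standard error of the log2 fold change was 0.18 for axoneme and 0.11 for transport genes in wild type, so an equal difference is called more readily for transport genes.

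Dnah8, an outer arm heavy chain best known from sperm flagella, was the only heavy chain that rose. Its levels were 22.3, 18.7, 16.4, 31.4 and 15.2 CPM in WT_saline and 42.3, 33.3, 41.5, 40.6 and 33.6 CPM in WT_HDM. KO_saline libraries held 16.9, 12.5, 10.9, 17.5 and 11.7 CPM and KO_HDM libraries 42.9, 29.8, 27.9, 27.6 and 29.7 CPM. In both genotypes every HDM library was above every saline library. The log2 fold change was 0.88 ± 0.18 (SE; 1.84-fold) in wild type with an edgeR adjusted p of 0.00157, and 1.18 ± 0.19 (2.27-fold) in the libraries labelled knockout with an edgeR adjusted p of 3.51e-05. Of 8 germ cell markers 1, Sycp3, had enough counts to test; it was not called in wild type (0.59, edgeR adjusted p = 0.424) and rose in the libraries labelled knockout (2.31, edgeR adjusted p = 0.00121).

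Dnah11, an outer arm heavy chain of airway cilia, held 104, 79.8, 65.8, 49.3 and 62.9 CPM in WT_saline against 42.6, 37.1, 65.1, 42.97 and 63.3 CPM in WT_HDM. KO_saline held 71.3, 55.4, 42.5, 56.8 and 57.2 CPM and KO_HDM 59.0, 39.5, 42.4, 41.0 and 45.9 CPM. The groups overlapped in both genotypes. The log2 difference in wild type was -0.53 ± 0.19 (edgeR adjusted p = 0.0461), and the call held in 5 of the 20 fits that left out 1 library (edgeR adjusted p up to 0.141); in the libraries labelled knockout the difference was -0.32 (edgeR adjusted p = 0.18).

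The other 9 heavy chains did not pass in either genotype, including the main outer arm motors Dnah5 and Dnah9. Dnah5, the outer arm chain often mutated in primary ciliary dyskinesia, held 205, 366, 159, 192 and 210 CPM in WT_saline and 172, 155, 293, 217 and 285 CPM in WT_HDM. KO_saline held 210, 176, 129, 211 and 200 CPM and KO_HDM 240, 177, 204, 181 and 252 CPM. Its log2 differences were -0.01 and 0.19 (edgeR adjusted p = 0.967 and 0.477), and the groups overlapped widely. Dnah17, a heavy chain of sperm flagella, had 0.34 and 0.28, and Dnah9 0.14 and -0.08. Among the rest Dnah7a had the lowest value, -0.42 in wild type (edgeR adjusted p = 0.112). Reads of the near-identical copies Dnah7a and Dnah7b may be shared between them, so both are uncertain one by one.

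The intermediate chains link the heavy chains of the outer arm to the doublet. Dnaic1 held 10.4, 16.8, 9.89, 12.1 and 12.8 CPM in WT_saline and 7.42, 6.14, 7.38, 7.29 and 10.1 CPM in WT_HDM. KO_saline held 12.3, 13.6, 11.7, 11.04 and 13.9 CPM and KO_HDM 10.1, 6.97, 7.44, 6.01 and 9.05 CPM. All KO_HDM libraries were below all KO_saline libraries, whereas in wild type WT_HDM 5 lay above WT_saline 3. Dnaic1 fell by 0.69 ± 0.16 and 0.66 ± 0.16 on the log2 scale (edgeR adjusted p = 0.00351 and 0.00202). Without the 5 adipose-rich libraries the wild-type difference was -0.41 and not called (edgeR adjusted p = 0.123).

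Dnaic2 held 15.3, 30.6, 15.9, 24.4 and 24.3 CPM in WT_saline and 13.6, 14.1, 21.5, 18.8 and 22.2 CPM in WT_HDM. KO_saline held 19.0, 25.2, 23.3, 18.6 and 22.02 CPM and KO_HDM 17.8, 13.2, 13.0, 11.96 and 20.5 CPM. The groups overlapped in both genotypes. The log2 difference was -0.29 in wild type (edgeR adjusted p = 0.28) and -0.50 ± 0.20 in the libraries labelled knockout (edgeR adjusted p = 0.041), a call that held in 7 of the 20 fits that left out 1 library.

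Radial spoke genes had median log2 differences of -0.37 and -0.36, and of the 5 tested 1 fell in wild type (20%, beside 16.5% of all genes) and 2 in the libraries labelled knockout (40%, beside 25.7%). Rsph9, a spoke head protein, held 7.43, 12.6, 7.92, 10.3 and 11.1 CPM in WT_saline and 7.85, 6.59, 8.31, 6.41 and 6.63 CPM in WT_HDM. KO_saline held 10.2, 13.6, 11.3, 9.65 and 11.3 CPM and KO_HDM 8.65, 7.21, 7.64, 5.68 and 6.31 CPM. The groups were separate only in the libraries labelled knockout, where Rsph9 fell by 0.66 ± 0.15 (edgeR adjusted p = 0.00106). In wild type it fell by 0.46 ± 0.15 (edgeR adjusted p = 0.0244), and the call ended without WT_saline 2 (0.0751), WT_saline 5 (0.0914), WT_HDM 2 (0.0776), WT_HDM 4 (0.0552) or WT_HDM 5 (0.0656).

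Rsph3a, a spoke stalk protein, shares reads with its copy Rsph3b and is uncertain by itself. It held 18.0, 30.2, 21.5, 25.8 and 22.9 CPM in WT_saline, 17.5, 19.6, 17.1, 21.3 and 24.7 in WT_HDM, 23.6, 31.6, 26.05, 24.5 and 27.3 in KO_saline and 18.9, 21.5, 20.5, 18.4 and 23.4 in KO_HDM. Only the groups labelled knockout were separate, with a log2 difference of -0.37 ± 0.13 (edgeR adjusted p = 0.0205), which lost its call without KO_saline 2 (0.118), KO_saline 3 (0.0579) or KO_saline 5 (0.0668). In wild type it was -0.24 (edgeR adjusted p = 0.167). Rsph1, Rsph3b and Rsph4a lay between -0.28 and -0.45 and did not pass in either genotype with all libraries. Without the adipose-rich libraries each was called lower in the libraries labelled knockout (edgeR adjusted p = 0.00874, 0.00567 and 0.0175). Rsph6a, a spoke head protein of sperm, held 3 counts in WT_saline, 9 in WT_HDM, 1 in KO_saline and 7 in KO_HDM.

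Tektins had the lowest class medians, -0.65 in wild type and -1.21 in the libraries labelled knockout. Of 5 tektins, 3 fell in wild type (Tekt1, Tekt2 and Tekt4) and 4 in the libraries labelled knockout (these and Tekt5). The shares lower were 60% and 80%, beside 16.5% and 25.7% of all genes. Tekt2 held 7.996, 10.2, 9.30, 7.96 and 9.94 CPM in WT_saline and 3.46, 2.94, 3.50, 2.64 and 6.19 CPM in WT_HDM. KO_saline held 8.71, 12.4, 9.77, 9.91 and 8.98 CPM and KO_HDM 4.64, 3.12, 4.23, 3.53 and 3.83 CPM. Every HDM library was below every saline library in both genotypes, with WT_HDM 5 the nearest to saline. The decrease was 2.41-fold (log2 -1.27 ± 0.19, edgeR adjusted p = 7.57e-05) and 2.57-fold (-1.36 ± 0.19, edgeR adjusted p = 8.3e-06).

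Tekt4 held 7.62, 10.3, 7.28, 8.83 and 8.62 CPM in WT_saline and 3.71, 4.16, 6.06, 4.81 and 4.85 CPM in WT_HDM. KO_saline held 7.75, 10.5, 9.02, 7.56 and 8.30 CPM and KO_HDM 5.02, 3.80, 3.16, 2.81 and 3.83 CPM. The groups were again separate in both genotypes. Tekt4 fell 1.81-fold (-0.86 ± 0.16, edgeR adjusted p = 0.000576) and 2.31-fold (-1.21 ± 0.16, edgeR adjusted p = 5.4e-06).

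Tekt1 fell by 0.65 and 0.75 on the log2 scale (edgeR adjusted p = 0.00577 and 0.000768), from 15.2 ± 3.29 to 9.69 ± 1.68 CPM in wild type and from 19.6 ± 2.06 to 11.7 ± 2.60 CPM in the libraries labelled knockout (SD, n = 5). Without the adipose-rich libraries its wild-type difference was -0.33 and not called (edgeR adjusted p = 0.194). Tekt5 fell from 3.25 ± 0.420 to 1.40 ± 0.586 CPM in the libraries labelled knockout, and its wild-type difference of -0.56 was not called (edgeR adjusted p = 0.129). Tekt3 lay at 0.389 to 1.63 CPM over all libraries, with differences of 0.38 and 0.01, neither called.

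**Figure D2:**
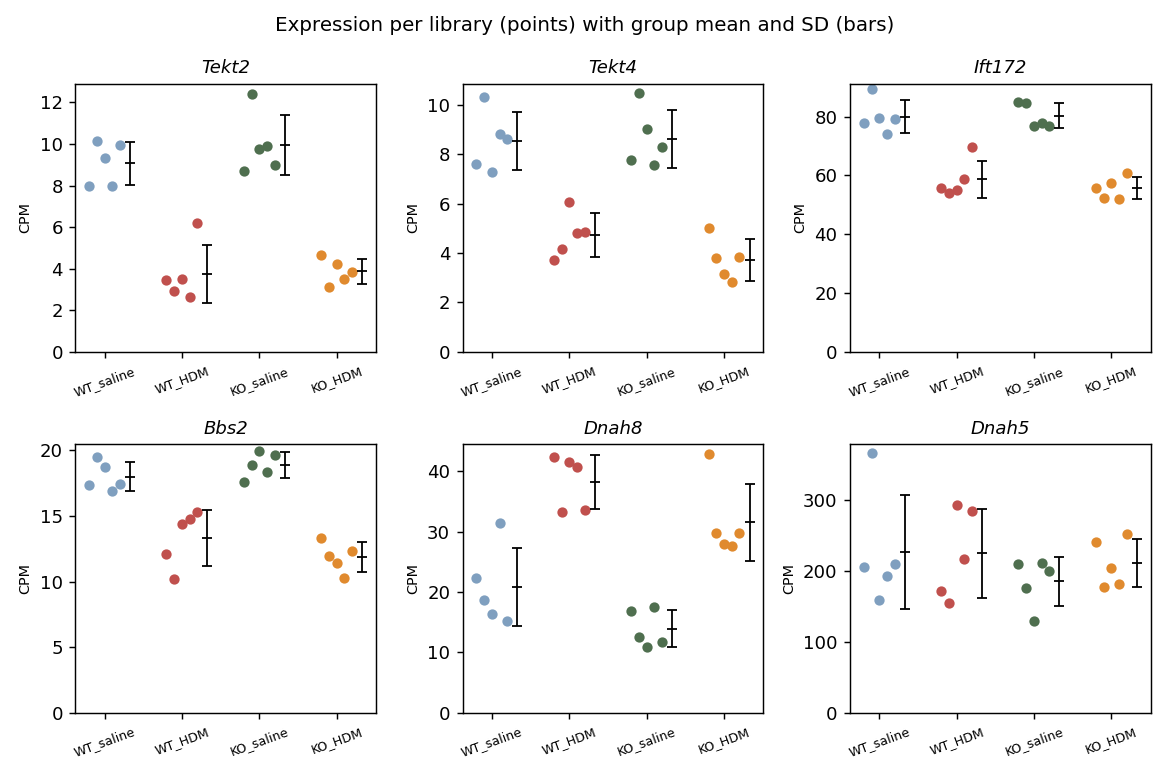
CPM (y axis, from 0) of Tekt2, Tekt4, Ift172, Bbs2, Dnah8 and Dnah5 in each of the 20 libraries (points, 5 a group), with group means and SD (bars). Within each genotype label, HDM libraries lie below saline libraries without overlap for the first 4 genes, above them for Dnah8, and among them for Dnah5.

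In IFT complex A, Ift43 and Ift122 fell and Ift140 did not change by the test. Ift43 held 19.0, 28.3, 23.98, 22.04 and 29.2 CPM in WT_saline and 18.0, 16.8, 19.3, 14.997 and 19.3 CPM in WT_HDM. KO_saline held 29.2, 31.1, 30.0, 28.0 and 29.6 CPM and KO_HDM 17.8, 17.1, 18.0, 15.2 and 15.4 CPM. The groups labelled knockout were separate, and the wild-type groups overlapped through WT_saline 1. Ift43 fell by 0.47 ± 0.10 and 0.83 ± 0.10 on the log2 scale (edgeR adjusted p = 0.0021 and 3.01e-06). The interaction of -0.35 had an edgeR adjusted p of 0.239.

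Ift122 held 24.7, 30.4, 27.9, 24.2 and 29.2 CPM in WT_saline and 19.2, 18.0, 21.6, 19.9 and 25.3 CPM in WT_HDM. KO_saline held 27.7, 29.5, 28.6, 26.4 and 29.2 CPM and KO_HDM 19.9, 22.5, 19.9, 17.2 and 19.8 CPM. WT_HDM 5 alone reached the range of its saline group. Ift122 fell by 0.39 ± 0.09 and 0.51 ± 0.09 (edgeR adjusted p = 0.00375 and 0.000145). Ift140, a core subunit, had differences of 0.10 and 0.08 (edgeR adjusted p = 0.531 and 0.569).

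Complex B genes differed less, with medians of -0.17 and -0.25, and 3 of 11 fell in wild type and 7 in the libraries labelled knockout. The shares lower were 27.3% and 63.6%, beside 16.5% and 25.7% of all genes. Ift172, which sits at the rim of the complex, held 77.9, 89.4, 79.5, 74.0 and 79.2 CPM in WT_saline and 55.9, 54.1, 55.0, 58.7 and 69.6 CPM in WT_HDM. KO_saline held 85.2, 84.7, 76.7, 78.0 and 76.8 CPM and KO_HDM 55.9, 52.5, 57.6, 52.2 and 61.0 CPM. The groups were separate in both genotypes. It fell 1.36-fold (-0.45 ± 0.07, edgeR adjusted p = 0.000228) and 1.44-fold (-0.52 ± 0.07, edgeR adjusted p = 1.18e-05).

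Ift20, which also works at the Golgi, held 19.0, 15.9, 15.6, 19.9 and 21.0 CPM in WT_saline and 20.3, 15.9, 16.3, 13.9 and 16.9 CPM in WT_HDM. KO_saline held 19.1, 22.7, 24.7, 18.5 and 20.2 CPM and KO_HDM 17.6, 17.5, 16.1, 16.3 and 16.2 CPM. Only the groups labelled knockout were separate, with a log2 difference of -0.33 ± 0.11 (edgeR adjusted p = 0.0137; 0.0665 without KO_saline 2 and 0.0917 without KO_saline 3), against -0.13 in wild type (edgeR adjusted p = 0.378). Ift27 (-0.30 and -0.29) and Ift57 (-0.28 and -0.25) passed in both genotypes, and Ift22 (-0.30), Ift46 (-0.22) and Ift88 (-0.30) in the libraries labelled knockout alone. Each of these calls held in only 5 to 13 of the 20 fits that left out 1 library. Ift52, Ift74, Ift80 and Ift81 did not pass, with values from -0.18 to 0.04; Ift52 was at 33.6 ± 2.38, 33.8 ± 1.2, 35.2 ± 2.13 and 34.5 ± 1.47 CPM in WT_saline, WT_HDM, KO_saline and KO_HDM.

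BBSome subunits were lower as a class, with medians of -0.44 and -0.49. In both genotypes 5 of 6 fell (83.3%, beside 16.5% and 25.7% of all genes). Bbs2 held 17.4, 19.5, 18.7, 16.9 and 17.4 CPM in WT_saline and 12.1, 10.2, 14.4, 14.7 and 15.3 CPM in WT_HDM. KO_saline held 17.6, 18.9, 19.97, 18.3 and 19.6 CPM and KO_HDM 13.3, 11.99, 11.4, 10.3 and 12.3 CPM. The groups did not overlap in either genotype. Bbs2 fell by 0.43 ± 0.10 and 0.67 ± 0.10 on the log2 scale (edgeR adjusted p = 0.00304 and 1.91e-05).

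Bbs4 held 18.3, 14.8, 13.3, 15.1 and 16.2 CPM in WT_saline and 12.9, 8.13, 11.8, 8.79 and 12.03 CPM in WT_HDM. KO_saline held 15.2, 17.4, 18.0, 16.5 and 15.6 CPM and KO_HDM 11.6, 12.5, 10.02, 8.99 and 9.65 CPM. The groups were separate in both genotypes, and Bbs4 fell by 0.53 ± 0.13 and 0.65 ± 0.13 (edgeR adjusted p = 0.00384 and 0.000294). Bbs1, which recruits the BBSome to membranes (-0.44 and -0.55), Bbs7 (-0.41 and -0.40) and Bbs9 (-0.47 and -0.43) also fell. The wild-type call of Bbs1 ended without WT_saline 2 (0.0525), WT_HDM 1 (0.0597) or WT_HDM 2 (0.0625), and that of Bbs7 held in 8 of the 20 fits that left out 1 library, against 16 in the libraries labelled knockout. Bbs5 was at -0.07 and -0.26 and did not pass.

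The chaperonin-like genes Bbs10 and Bbs12, which help assemble the BBSome, did not fall. Bbs12 held 7.87, 4.35, 3.93, 3.63 and 3.02 CPM in WT_saline and 4.02, 4.93, 6.92, 5.64 and 5.05 CPM in WT_HDM. KO_saline held 4.31, 2.87, 2.77, 4.35 and 3.33 CPM and KO_HDM 5.98, 5.75, 6.03, 5.02 and 4.96 CPM. WT_saline 1 stood above every other library, and the groups labelled knockout did not overlap. Bbs12 rose by 0.65 ± 0.22 on the log2 scale in the libraries labelled knockout (edgeR adjusted p = 0.0166). In wild type the difference was 0.22 (edgeR adjusted p = 0.472), and 0.50 without WT_saline 1 (edgeR adjusted p = 0.0304).

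Bbs10 held 5.97, 5.23, 4.15, 3.31 and 3.91 CPM in WT_saline and 4.70, 3.90, 4.12, 4.55 and 4.01 CPM in WT_HDM. KO_saline held 4.79, 4.32, 4.00, 4.52 and 4.88 CPM and KO_HDM 5.28, 3.90, 3.55, 2.92 and 4.31 CPM. The groups overlapped throughout, with log2 differences of -0.08 and -0.17 (edgeR adjusted p = 0.747 and 0.388).

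**Figure D3:**
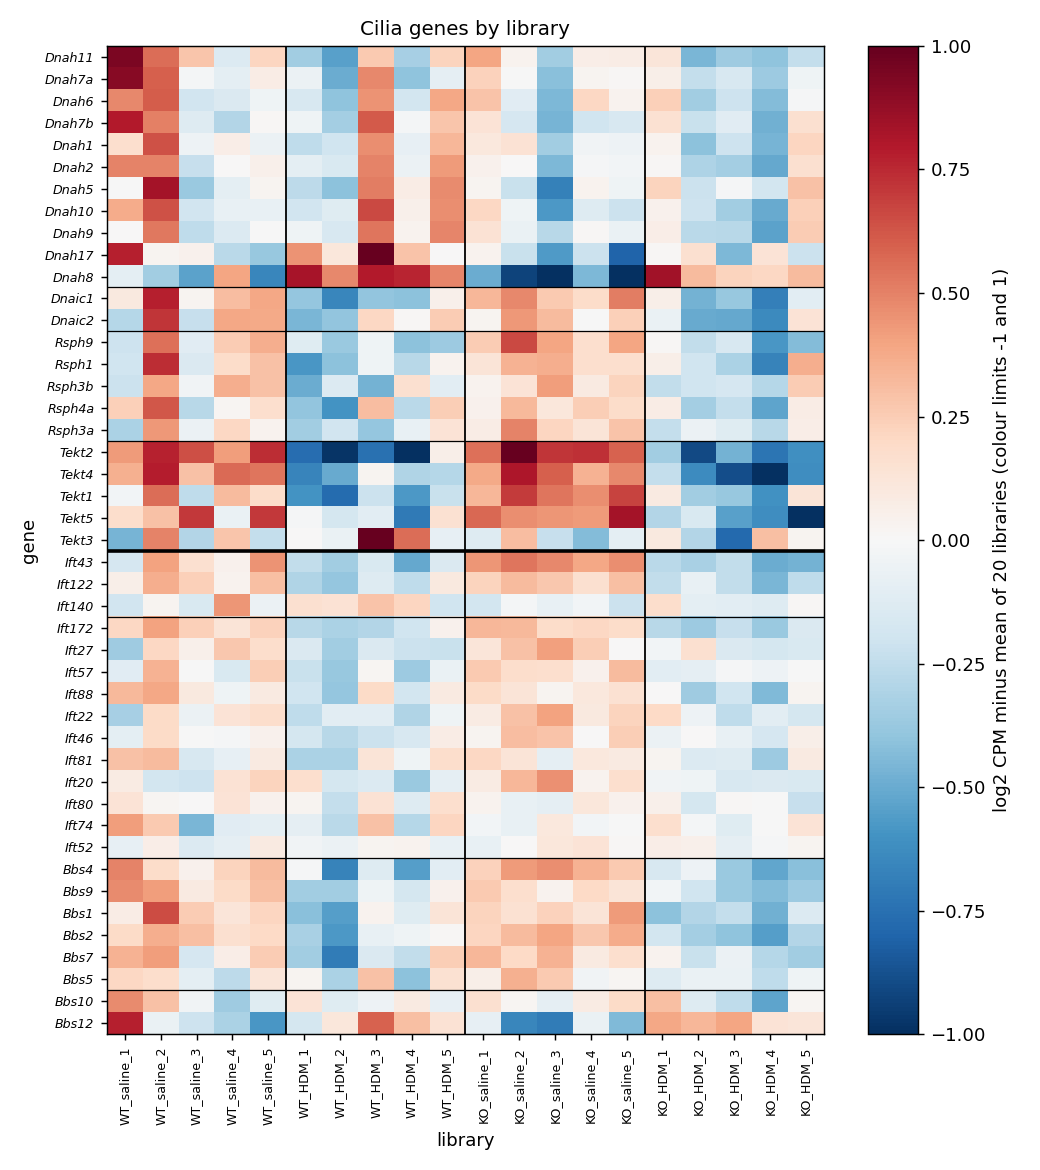
Log2 CPM of each tested member (y axis) in each of the 20 libraries (x axis), less the member's mean over all libraries; red is higher and blue lower, colours are capped at -1 and 1, and a thick line parts axoneme from transport genes. WT_saline 2 is high and KO_HDM 4 low for many members at once, and Dnah8 and Bbs12 run opposite to the tektins.

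Within a group, single libraries were highest or lowest for many members at once. WT_saline 2 was the highest of its group for 16 of 23 axoneme and 10 of 22 transport genes, and WT_HDM 3 for 15 axoneme genes. WT_HDM 2 was the lowest of its group for 11 axoneme and 14 transport genes, and KO_HDM 4 for 17 and 14. WT_saline 2 and WT_HDM 2 are among the 5 libraries with high adipose transcripts. Without those 5 libraries, which leaves 3 a group in wild type, 3 of 23 axoneme and 3 of 22 transport genes were called there. Both shares were below the 21.4% of all genes called. Beside Dnaic1 and Tekt1, the wild-type calls of Rsph9 (-0.23, edgeR adjusted p = 0.401), Dnah11 (-0.45, 0.157), Bbs1 (-0.26, 0.186), Bbs4 (-0.39, 0.0525), Bbs7 (-0.23, 0.356), Ift27 (-0.16, 0.47), Ift43 (-0.37, 0.0504), Ift57 (-0.15, 0.341) and Ift122 (-0.32, 0.068) ended there. In the libraries labelled knockout, the same fit added lower calls for Rsph1 (-0.52, edgeR adjusted p = 0.00874), Rsph3b (-0.43, 0.00567) and Rsph4a (-0.45, 0.0175). It ended those of Ift22 (-0.29, edgeR adjusted p = 0.0566) and Ift27 (-0.28, 0.0581). The part of adipose content in these results was not tested.

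**Figure D4:**
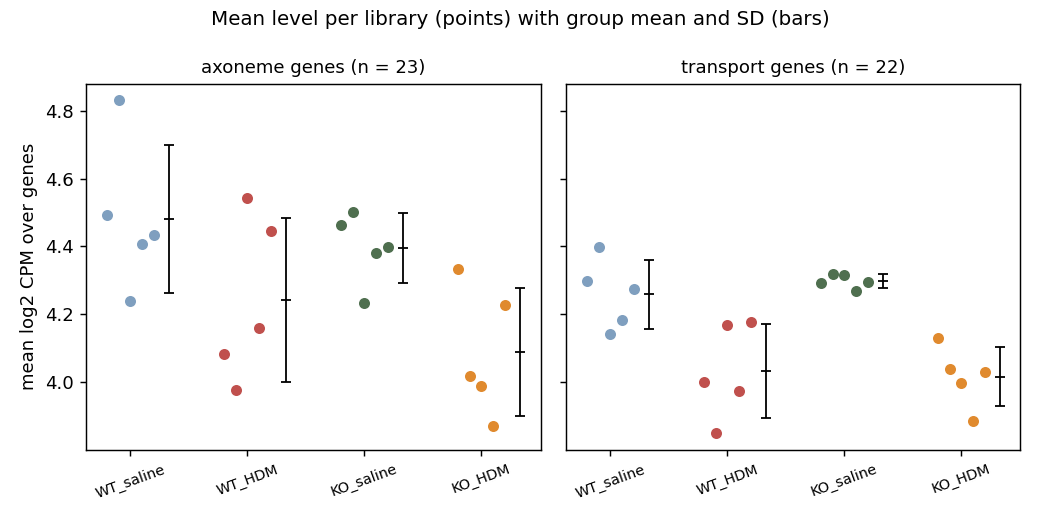
Mean log2 CPM over the 23 tested axoneme genes (left) and the 22 transport genes (right) in each library (points), with group mean and SD (bars); the y axis does not start at 0. In the libraries labelled knockout the transport means of HDM and saline lie apart, whereas axoneme means are spread more widely within each group.

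The mean of log2 CPM over the axoneme genes was 4.48 ± 0.22 in WT_saline, 4.24 ± 0.24 in WT_HDM, 4.40 ± 0.10 in KO_saline and 4.09 ± 0.19 in KO_HDM (SD, n = 5). Over the transport genes it was 4.26 ± 0.10, 4.03 ± 0.14, 4.30 ± 0.02 and 4.02 ± 0.09 in the same order. The axoneme mean less the transport mean, which compares the same genes in every library, was 0.22 ± 0.13 in WT_saline and 0.21 ± 0.12 in WT_HDM, and 0.10 ± 0.11 in KO_saline and 0.07 ± 0.12 in KO_HDM. HDM thus shifted this difference by less than the spread between libraries. The median log2 fold change of axoneme genes less that of transport genes was -0.048 in wild type and -0.011 in the libraries labelled knockout.

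Between genotype labels, 0 of the 45 tested members were called under saline or under HDM, by edgeR, DESeq2 or limma voom, and 0 for the interaction. At an unadjusted edgeR p under 0.05 there were 2 axoneme and 1 transport genes under saline, 1 and 0 under HDM, and 0 and 1 for the interaction. Of all genes 0.908% were called under saline, 6.67% under HDM and 1.24% for the interaction. All 11 heavy chains lay below 0 under saline, from -0.58 (Dnah8, edgeR adjusted p = 0.174) to -0.10, with a median of -0.30, and the other axoneme genes had a median of 0.02. Under HDM the heavy chains again all lay below 0, with a median of -0.22. The comparisons share libraries with those of HDM and add no separate evidence for one another. Without the 5 adipose-rich libraries Dnah9 was called lower under HDM (-0.59, edgeR adjusted p = 0.024).

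Transcript length separates the heavy chains from the other members. The longest protein-coding transcript of each gene (GENCODE M21) was 12245 to 16685 nucleotides for heavy chains and 783 to 6942 for the other members. Genes are no independent replicates, so these correlations are descriptions. Across the 23 axoneme genes the HDM difference (log2) correlated with log2 length with r = 0.59 (Spearman's rho 0.67) in wild type and 0.71 (0.76) in the libraries labelled knockout, and that of knockout label under saline with -0.86 (-0.85). Across the 22 transport genes r was 0.01, 0.12 and -0.50, and across 15165 genes with a length it was -0.07, -0.04 and -0.10. All genes of 8000 nucleotides or more had medians of -0.06, 0.04 and -0.14 in these comparisons. With each library's trend of expression on length as an offset, the heavy chains had a median of -0.02 in wild type, -0.20 in the libraries labelled knockout and -0.09 for the knockout label under saline. The median of all genes moved to -0.05 and -0.07 in the HDM comparisons. In the libraries labelled knockout Dnah11 (-0.42, edgeR adjusted p = 0.0233), Rsph1, Rsph3b, Rsph4a and Ift81 were then also called lower, as were Rsph1, Rsph3b and Ift88 in wild type. The part of length in these differences was otherwise not tested.

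**Figure D5:**
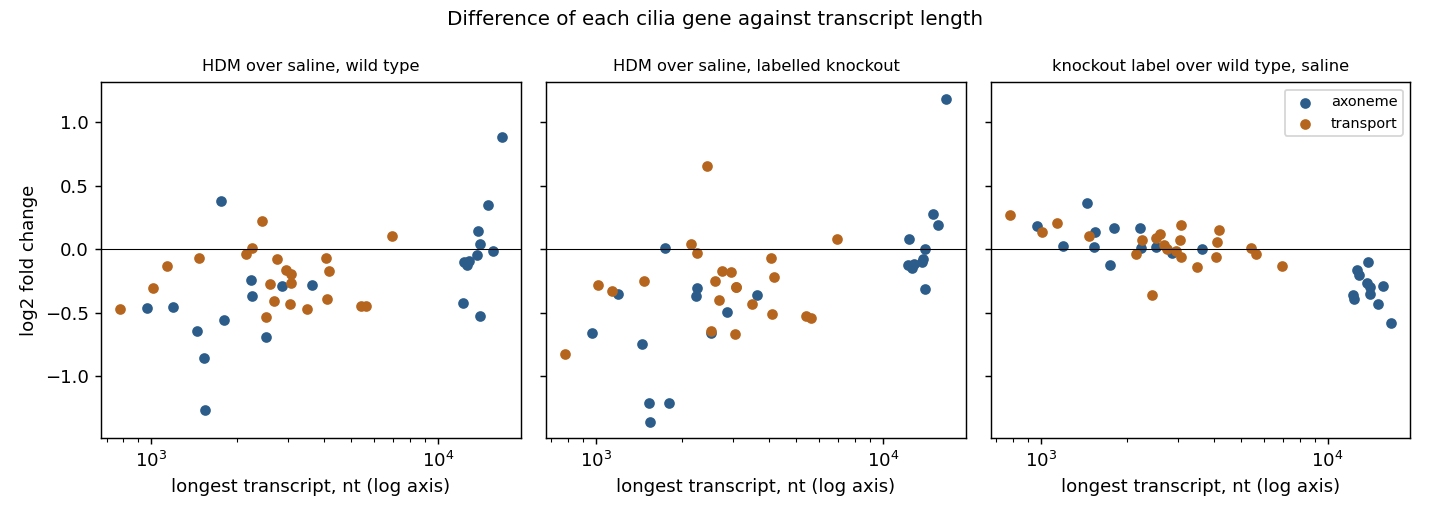
Log2 fold change (y axis) against the length of the longest transcript in nucleotides (x axis, log scale) for each tested member, in 3 comparisons. The 11 heavy chains form the group at the right of each panel, mostly near 0 for HDM, apart from Dnah8 above and, in wild type, Dnah11 and Dnah7a below, and all below 0 for the knockout label under saline.

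Of 41 further axoneme genes 12 fell and 1 rose in wild type, and 22 fell and 2 rose in the libraries labelled knockout (29.3% and 53.7% lower, beside 16.5% and 25.7% of all genes). Among them Lrrc23, a radial spoke protein (-0.66 and -0.74), Wdr63, an inner arm intermediate chain (-0.50 and -0.75), and Nme9 (-0.67 and -0.88) fell in both. Spef1, a microtubule-binding protein of the central pair, fell by 0.30 and 0.89, and its interaction of -0.59 was called (edgeR adjusted p = 0.0365). No other interaction among the 41 was called (2.44%, beside 1.24% of all genes). Of 11 dynein arm assembly factors 1 fell in wild type, 1110004E09Rik (-0.46), and 5 in the libraries labelled knockout, such as Zmynd10 (-0.90), Dnaaf1 (-0.58) and Heatr2 (-0.30). The shares lower, 9.09% and 45.5%, stand beside the same 16.5% and 25.7%, so the wild-type count was no higher than among all genes. Of 17 regulators of multiciliated cells 2 fell in wild type, and 4 fell and 2 rose in the libraries labelled knockout, shares at or under those of all genes (11.8% and 23.5% lower, 11.8% higher). Rfx2, which binds the X-box, fell from 16.3 ± 2.29 to 9.34 ± 1.74 CPM and from 16.8 ± 1.31 to 9.18 ± 1.11 CPM (SD, n = 5; log2 -0.80 and -0.87). Rfx3 rose in the libraries labelled knockout (0.41) and Gmnc fell in wild type (-0.71). Foxj1, the main regulator of motile cilia, was at -0.26 in wild type (edgeR adjusted p = 0.276) and fell by 0.51 in the libraries labelled knockout (edgeR adjusted p = 0.0223).

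Of 22 further IFT and motor genes 9 fell in wild type, and 11 fell and 2 rose in the libraries labelled knockout, with the kinesin Kif3c (-0.41 and -0.62), the adaptor Tulp3 (-0.32 and -0.55), the complex A subunit Wdr35 (-0.45 and -0.54) and the dynein-2 subunit Dync2li1 (-0.55 and -0.56) lower in both. The shares lower were 40.9% and 50%, beside 16.5% and 25.7% of all genes. Of 14 further BBSome and Bardet-Biedl genes 4 fell and 2 rose in both genotypes, with Trim32 (-0.33 and -0.42) lower and Sdccag8 (0.50 and 0.39) higher. Their share lower was 28.6% in both, near that of all genes in the libraries labelled knockout, and the medians were -0.10 and -0.09. Rab3ip fell in the libraries labelled knockout (-0.41). Of 27 genes of the transition zone and primary cilium signalling 11 and 15 fell and 0 rose (40.7% and 55.6% lower), among them the hedgehog receptor Ptch1 (-0.83 and -0.91), its partner Smo (-0.49 and -0.70) and the ciliary proteins Evc (-0.79 and -0.92) and Evc2 (-0.83 and -1.01).

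Markers of several cell types also differed after HDM, some lower like most of the cilia genes and others higher. Of 16 ciliated cell markers, 3 of which are also in the lists above, 6 fell in wild type and 13 in the libraries labelled knockout; their summed level was 2504 to 3380 CPM under saline and 1346 to 2441 CPM under HDM in wild type, and 2906 to 3498 CPM and 1492 to 1938 CPM in the libraries labelled knockout. Club cell markers fell in 5 and 6 of 9, endothelial markers in 9 of 9 in both, and goblet cell markers rose in 9 of 10 in both. Alveolar type 1 markers fell in 5 and 7 of 8, and cell cycle genes rose in 8 of 8 in both. Leukocyte markers rose in 3 and 5 of 8 and fell in 1 and 0. Alveolar type 2 markers fell in 0 and 4 of 8 and rose in 1 and 1. Fibroblast markers fell in 3 and 3 of 8 and rose in 1 and 3. Smooth muscle markers fell in 2 and 0 of 6 and rose in 0 and 0. Basal cell markers rose in 0 and 3 of 5 and fell in 0 and 0. Among all genes 16.5% and 25.7% fell and 13.6% and 26.2% rose. In whole-lung RNA, fewer cells of a type and less RNA per cell cannot be told apart. The part of these cell types in the differences of the members was not tested.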

How the data were processed

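Poly(A)-selected, strand-specific libraries of mouse lung, 20 in all, were sequenced. The authors deposited RSEM expected counts per gene and library, not normalized; the submitters' processing notes name Bowtie2 2.1.0, RSEM 1.2.15 and the human build hg38, although the symbols are mouse, so the build is not known and no coordinates come from the table. RSEM divides reads among similar genes, and 11 of 46 members had non-integer sums. Counts were rounded, filtered (filterByExpr, 16193 of 24054 genes), TMM-scaled and fitted with edgeR 4.0.16 in R 4.3.3 (robust quasi-likelihood, 1 mean per group, 16 residual degrees of freedom, 5 contrasts, Benjamini-Hochberg over all genes tested). The script was tested on simulated counts. DESeq2 1.42.0, limma 3.58.1 (voom), other scalings and filters, a replicate block, and fits without single or adipose-rich libraries were alternatives; a length offset was added after the data were seen. The members and gene lists were chosen with earlier results of these data known, so lists are described and not tested. Values per library are given for the 2 members of each class with the lowest p in either HDM comparison, and for Dnah5, chosen after its values were seen; up to 4 members per companion list are named by the same rule, and Foxj1 and Sycp3 outside it. 1 companion gene that this rule names is not reported here.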

Additional observations from a re-analysis of the deposited data

Results flagged for a closer look

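Among the 72 sets of 5 libraries examined for the members given in full and their class means, 3 had a library far from the rest of its group; about 1 in 20 is flagged by chance. Dnah8 was at 42.9 CPM in KO_HDM 1, against 27.6 to 29.8 CPM in the other libraries of that group. Bbs12 was at 7.87 CPM in WT_saline 1, against 3.02 to 4.35 CPM in the others. Tekt2 was at 6.19 CPM in WT_HDM 5, against 2.64 to 3.50 CPM in the others.

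The interaction of genotype label and HDM was called for Spef1, with a log2 fold change of -0.59 (edgeR adjusted p = 0.0365). It was 1 of 41 further axoneme genes (2.44%), beside 1.24% of all genes, and its call was not examined in the alternative fits. Spef1 went from 21.8 ± 1.90 to 17.8 ± 2.29 CPM in wild type and from 22.6 ± 1.91 to 12.2 ± 1.25 CPM in the libraries labelled knockout (SD, n = 5).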

How the results depend on the processing

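No called member changed direction in any alternative. Of the counts and class differences, 163 values were close to those reported and 9 moved, apart from fits that left out 1 library. A class difference was taken as close when it moved by less than its pooled SD within groups (0.11 to 0.13 in single groups). It could therefore change sign and still be close. A count was close within a set ratio, and genotype and interaction counts that stayed at 0 were included. In wild type 6 transport genes were called at an adjusted p under 0.01, for which the share of all genes was not counted. With the 10 compared libraries alone 6 transport genes were called, beside 18.2% of all genes. Bbs1, Bbs7, Dnah11, Ift27, Ift57 and Rsph9 lost their wild-type calls there (edgeR adjusted p = 0.0737, 0.128, 0.103, 0.126, 0.153 and 0.0732). Without the adipose-rich libraries 3 transport and 3 axoneme genes were called, beside 21.4% of all genes. The axoneme median less the transport median was then 0.16. In the libraries labelled knockout 7 transport genes were called at an adjusted p under 0.01. Without the adipose-rich libraries 1 axoneme gene, Dnah9, was called for the knockout label under HDM, and the class difference was -0.021 for the label under saline and -0.18 for the interaction. Why these values moved was not tested, other than that fewer libraries entered 2 of these fits.

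Leaving out 1 library at a time, the calls ranged from 5 to 10 axoneme and 6 to 11 transport genes in wild type, and from 7 to 11 and 8 to 15 in the libraries labelled knockout, with 0 to 0 for genotype and interaction. Of all genes 22.6% to 36% were called in these wild-type fits and 46.7% to 55.1% in those of the libraries labelled knockout. Transport calls in wild type were 6 without WT_saline 2, WT_HDM 1 or WT_HDM 2, and those in the libraries labelled knockout 8 without KO_saline 2 or KO_saline 3. Class differences ranged from -0.12 to 0.05 in wild type, -0.05 to 0.08 in the libraries labelled knockout, -0.19 to -0.03 for the label under saline, -0.20 to -0.07 under HDM and -0.06 to 0.08 for the interaction.

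Whether replicate numbers pair the libraries was not tested. Same-numbered libraries had mean correlations of 0.22, -0.02, 0.17, 0.08 and -0.02, and 7 of 20 correlated best with their own number. With a replicate block, 8 of 23 axoneme and 8 of 22 transport genes were called in wild type, 10 and 15 in the libraries labelled knockout, and 0 between genotype labels. Of all genes 31.2% were called in wild type and 53% in the libraries labelled knockout. The member shares were near that of all genes in wild type. In the libraries labelled knockout the axoneme share was below it and the transport share above it. In every fit other than the stricter threshold, Dnah8, Tekt2, Tekt4, Bbs2, Bbs9 and Ift172 were called in both HDM comparisons.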

Other observations

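Among the further IFT and motor genes, Dynlt1b, a dynein light chain with close copies whose reads may be shared, was higher in the libraries labelled knockout under saline (1.17 on the log2 scale, edgeR adjusted p = 9.97e-06) and under HDM (1.41, edgeR adjusted p = 6.24e-07), without overlap of the groups. Tctex1d2, a dynein-2 light chain, was higher under HDM (0.46, edgeR adjusted p = 0.0088). Both were chosen after their values were seen.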
